A study of Mus musculus with 24 samples.

Results

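The collagen genes of mouse adipose tissue are described here across white adipose tissue (WAT) and brown adipose tissue (BAT) and across 3 diets. A gene was a member when an array probe's platform symbol had the form Col, a number, a and a number, and each gene was read at its probe with the highest mean over all arrays. This gave 41 collagen genes of 19053 named genes, held on 91 of 45281 probes. The rule used the probe names and brightness only, but it was chosen with earlier results of these data known. Of the 41 genes, 14 had 1 probe. Col6a3, a chain of type VI collagen, was not among the members and was not analysed here.

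The 24 samples were total RNA from male C57Bl/6J mice on Illumina mouse expression arrays, 4 arrays for each tissue and diet. The groups were WAT and BAT of mice on a high-fat diet with EPA/DHA (eicosapentaenoic and docosahexaenoic acid), on a high-fat diet with corn oil, and on a low-fat diet. No group carried a mutation or transgene according to the labels, and age was not given in them. The 4 mice of a diet had been picked to stand for their group in body weight and plasma lipids, no fat depot is named for WAT, and the RNA protocol speaks of skeletal muscle although the tissue labels give fat. Nothing in the labels says whether WAT and BAT arrays with the same number share a mouse.

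Collagens are the main structural proteins of the space between cells. Their chains wind round each other into a helix inside the cell, are trimmed outside it, and assemble into fibrils, networks or filaments according to class. In fat, type IV collagen forms the basement membrane around each adipocyte and each capillary, type VI collagen forms beaded filaments close to it, and types I, III and V form the fibrils of the stroma. Fibroblasts, adipocytes and vascular cells all make some of them.

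The members fell into 9 classes. There were 11 fibrillar genes (Col1a1, Col1a2, Col2a1, Col3a1, Col5a1, Col5a2, Col5a3, Col11a1, Col11a2, Col24a1 and Col27a1) and 7 FACIT genes, whose products sit on the surface of fibrils (Col9a1, Col9a2, Col9a3, Col14a1, Col16a1, Col19a1 and Col22a1). The basement membrane network had 6 genes (Col4a1 to Col4a6) and the beaded filaments 5 (Col6a1, Col6a2, Col6a4, Col6a5 and Col6a6). The multiplexins, Col15a1 and Col18a1, which sit in or near basement membranes, were 2. There were 3 short-chain network genes (Col8a1, Col8a2 and Col10a1), 4 transmembrane genes (Col13a1, Col17a1, Col23a1 and Col25a1), 1 anchoring fibril gene (Col7a1) and 2 others (Col26a1 and Col28a1).

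The start regions of 4 members are shown because Col16a1 and Col5a1 were the members that passed a diet test, and because Col4a1 and Col4a2 start close together on opposite strands. RefSeq (GRCm38.p6) gave a window of 300 bases, 250 before the annotated start and 50 from it on, for 33 of the 41 members. Capitals mark the letters CCAAT (the CCAAT box), TATAAA (the TATA box) and GGGCGG (the GC box), searched on both strands. Positions count from 1 at the annotated start, with negative positions before it.
Col16a1 (chr4:130047590-130047889, plus strand): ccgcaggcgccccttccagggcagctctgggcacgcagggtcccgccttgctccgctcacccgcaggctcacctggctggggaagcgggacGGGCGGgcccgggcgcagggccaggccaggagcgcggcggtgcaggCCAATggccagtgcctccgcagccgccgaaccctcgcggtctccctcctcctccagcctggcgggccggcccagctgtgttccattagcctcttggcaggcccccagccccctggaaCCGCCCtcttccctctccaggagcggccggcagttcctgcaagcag
Col5a1 (chr2:27886175-27886474, plus strand): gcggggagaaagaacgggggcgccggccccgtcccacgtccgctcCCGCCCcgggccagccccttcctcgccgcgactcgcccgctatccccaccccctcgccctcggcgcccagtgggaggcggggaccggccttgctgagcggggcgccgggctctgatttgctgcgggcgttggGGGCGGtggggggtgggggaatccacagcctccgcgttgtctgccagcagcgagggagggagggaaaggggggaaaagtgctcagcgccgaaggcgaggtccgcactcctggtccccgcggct
Col4a1 (chr8:11312777-11313076, minus strand): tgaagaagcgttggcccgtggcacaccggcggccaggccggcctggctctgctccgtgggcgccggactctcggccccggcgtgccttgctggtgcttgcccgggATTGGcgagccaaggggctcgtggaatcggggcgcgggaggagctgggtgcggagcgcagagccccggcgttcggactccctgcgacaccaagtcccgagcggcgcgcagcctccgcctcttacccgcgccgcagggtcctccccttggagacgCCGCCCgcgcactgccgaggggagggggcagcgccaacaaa
Col4a2 (chr8:11312555-11312854, plus strand): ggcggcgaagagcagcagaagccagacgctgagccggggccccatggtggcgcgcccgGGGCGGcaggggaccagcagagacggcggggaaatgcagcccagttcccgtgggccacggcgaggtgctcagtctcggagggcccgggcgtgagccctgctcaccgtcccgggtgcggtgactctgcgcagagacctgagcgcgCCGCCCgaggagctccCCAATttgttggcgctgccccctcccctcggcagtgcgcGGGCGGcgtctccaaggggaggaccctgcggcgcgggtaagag
The annotated starts of Col4a1 and Col4a2 are 21 bases apart on opposite strands, each just inside the other gene, so the genes overlap at their starts. Their windows share 78 bases. The GC box match at position 10 of Col4a1 and the one at position 8 of Col4a2 are the same bases (chr8:11312812-11312817) read from either strand. Col16a1 held 1 CCAAT box, at -113, and 2 GC boxes, at -159 and 5. Col5a1 held 2 GC boxes, at -205 and -73, and no CCAAT box. No match overlapped another in these windows, and none of the 4 held TATAAA. Of the 33 members with a window, 13 (39.4%) held CCAAT, against 41.1% of 27025 genes with a window. TATAAA was in 5 (15.2%), against 15.7% of all genes, and GGGCGG in 22 (66.7%), against 38.2%. The median GC content was 60% over collagen windows and 52.7% over all windows, and its part in the GC box share was not tested.

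Values are on the authors' log2 scale, 1 per probe and array, quantile normalised, with a floor near 7. A difference of 1 is 2-fold if the scale is plain log2, and the labels do not state whether it is, so differences near the floor may be understated. Levels of different genes come from different probes and are not compared with each other. A probe was tested in a tissue when it averaged more than 7.11, the 40th percentile, on the 12 arrays there. Diets were compared by limma, and called means an adjusted p under 0.05 (Benjamini-Hochberg, two-sided, over all 27168 probes kept). In WAT 32 members passed the filter and in BAT 31, all but Col6a5. The filter's mean was taken over all 3 diets together. Between the tissues 9 members passed in neither (Col4a6, Col6a4, Col6a6, Col9a3, Col10a1, Col13a1, Col19a1, Col22a1 and Col24a1), with values between 7.01 and 7.20. In all, 13 members averaged 7.5 or more, namely Col1a1, Col1a2, Col3a1, Col4a1, Col4a2, Col5a1, Col5a3, Col6a1, Col6a2, Col14a1, Col15a1, Col16a1 and Col18a1. The other 28 lay between 7.01 and 7.85 on every array.

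The arrays matched their tissue labels. Ucp1, the uncoupling protein of brown adipocytes, ran from 7.08 to 10.63 in WAT and from 13.55 to 14.41 in BAT, and Lep, the leptin gene, from 13.21 to 14.70 in WAT and from 7.79 to 11.83 in BAT. Ucp1 stood above its floor in WAT in EPA/DHA replicates 2 (10.63) and 4 (7.76), corn-oil replicate 4 (9.38) and low-fat replicate 1 (8.02). The mean of 11 skeletal muscle genes ran from 7.76 to 7.98 in WAT, and from 8.20 to 12.47 (EPA/DHA), 10.31 to 12.26 (corn oil) and 9.16 to 11.13 (low fat) in BAT. The mean of 12 liver genes ran from 10.03 to 12.32 in WAT and from 7.49 to 8.80 in BAT. The series text gives 4 mice for each diet without tying an array to a mouse, p-values measure the spread between these arrays, and their number limits the precision. Because the mice were picked to stand for their group, the spread between unpicked mice may be larger.

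**Figure D1:**
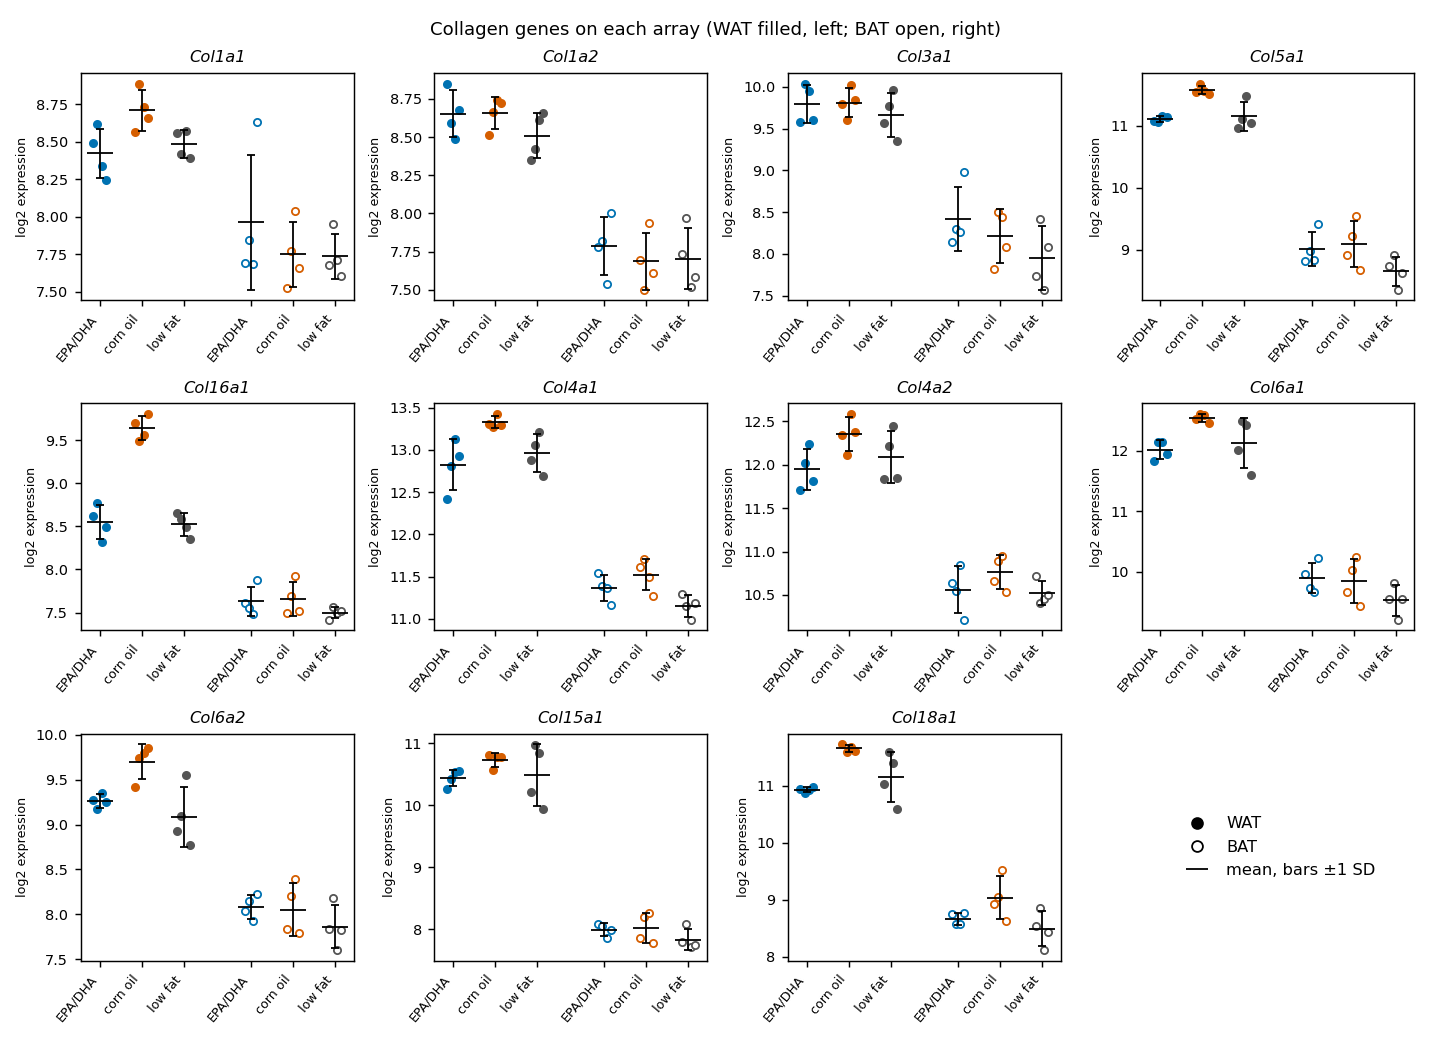
Log2 expression of 11 collagen genes on each array (points), with the group mean and 1 SD (bars), 4 arrays a group. Filled points are WAT and open points BAT, each ordered EPA/DHA, corn oil, low fat. For Col16a1 the 4 corn-oil WAT arrays, at 9.50 to 9.81, lie above every other array.

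In WAT, 2 collagen genes were higher on corn oil than on low fat. Col16a1, a FACIT collagen that links fibrils to other matrix parts, rose by 1.12 ± 0.10 log2 units (SE), or 2.17-fold on a plain log2 scale. Col5a1, the chain of type V collagen that starts fibrils and limits their width, rose by 0.42 ± 0.09. Col16a1 and Col5a1 each had 1 probe, so no second probe could be set beside their calls in any comparison. The remaining 30 of the 32 tested members were not called, and none was lower and called. In bulk tissue, more cells that make a collagen and more RNA per cell cannot be told apart.

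Col16a1 read 9.71, 9.50, 9.56 and 9.81 on corn oil, against 8.66, 8.59, 8.49 and 8.35 on low fat, in WAT. The lowest corn-oil array was well above the highest low-fat array (adjusted p = 0.00131, limma). Col5a1 read 11.54, 11.68, 11.56 and 11.52 on corn oil, against 10.96, 11.11, 11.48 and 11.05 on low fat (adjusted p = 0.037, limma). The groups did not overlap, and low-fat replicate 3, at 11.48, came within reach of the corn-oil arrays. The call on Col5a1 was kept in 6 of 18 alternatives, with adjusted p up to 0.222, while that on Col16a1 was kept in all 18. The Col5a1 call was lost when any of the other 7 arrays was left out, with no filter, with array weights and in 1 fit over all 24 arrays. The 2 calls upward make up 2 of 32 members, set beside 2.05% of all 13349 genes called higher in this comparison. At an unadjusted p under 0.05 there were 7 members, beside 19.7% of all genes.

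Col6a1, Col6a2 and Col18a1 had differences as large as that of Col5a1, or nearly so, that did not pass. Col6a2, a chain of type VI collagen, read 9.42, 9.74, 9.80 and 9.85 on corn oil, against 8.92, 9.10, 9.55 and 8.78 on low fat. The difference was 0.62 ± 0.15 (adjusted p = 0.0539, limma), with the groups overlapping through low-fat replicate 3, and it was called in 6 of 18 alternatives. Col6a1, its partner chain, read 12.52, 12.61, 12.58 and 12.46 on corn oil, against 12.02, 12.49, 12.42 and 11.60 on low fat, a difference of 0.41 ± 0.17 (adjusted p = 0.242, limma). A dimmer probe for Col6a1 did pass, at 11.49, 11.71, 11.72 and 11.81 on corn oil, against 10.90, 11.01, 11.37 and 10.98 on low fat (difference 0.61 ± 0.10, adjusted p = 0.0144, limma). Its dimmest probe was not called (0.11 ± 0.07). The probes for Col6a1 thus disagree on the call and agree on the direction.

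Col18a1, whose product yields the fragment endostatin, read 11.73, 11.59, 11.67 and 11.61 on corn oil, against 11.03, 11.58, 11.39 and 10.58 on low fat. The difference was 0.50 ± 0.17 (adjusted p = 0.149, limma), and the low-fat arrays were widely spread. Col15a1, the other multiplexin, read 10.82, 10.57, 10.77 and 10.78 on corn oil, against 10.21, 10.98, 10.84 and 9.94 on low fat (0.24 ± 0.20). Its low-fat arrays lay on both sides of the corn-oil arrays.

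The chains of the basement membrane network were not called either. Col4a1 read 13.31, 13.27, 13.43 and 13.30 on corn oil, against 12.88, 13.06, 13.21 and 12.69 on low fat (0.36 ± 0.14, adjusted p = 0.229, limma). Col4a2 read 12.34, 12.11, 12.59 and 12.38 on corn oil, against 11.84, 12.22, 12.45 and 11.84 on low fat (0.27 ± 0.16). The corn-oil arrays of Col4a1 stood apart from the low-fat arrays, and those of Col4a2 did not. Replicate 3 was the highest WAT array for both chains within each diet. The other tested basement membrane chains were near the floor, at differences between -0.15 (Col4a5) and -0.04 (Col4a3).

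Types I and III, the bulk of stromal fibrils, gave smaller differences that were not called. Col1a1 read 8.56, 8.89, 8.73 and 8.65 on corn oil, against 8.55, 8.41, 8.57 and 8.39 on low fat (0.23 ± 0.09, adjusted p = 0.222, limma). Col1a2 differed by 0.15 ± 0.09 and Col3a1 by 0.15 ± 0.15, with overlapping groups. In all, 4 members (Col16a1, Col5a1, Col4a1 and Col18a1) had every corn-oil array above every low-fat array, beside 6.54% of all genes. Col8a2 (-0.03) had every corn-oil array below, beside 5.86% of all genes. The median difference over the 32 members was 0.02, against -0.002 over all genes.

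The second question of the design was whether EPA/DHA in the high-fat diet changed collagen expression relative to corn oil. In WAT 2 genes were called, both lower on EPA/DHA. This comparison and the one before share the 4 corn-oil arrays, so a value on those arrays enters each of them. Col16a1 fell by 1.09 ± 0.10 log2 units on EPA/DHA, and Col5a1 fell by 0.47 ± 0.09. The 2 calls stand beside 1.17% of all genes called lower, and 9 of the 32 members had an unadjusted p under 0.05, beside 17.6% of all genes.

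Col16a1 read 8.62, 8.77, 8.31 and 8.50 on EPA/DHA, against the corn-oil values of 9.50 to 9.81 (adjusted p = 0.00141, limma). The highest EPA/DHA array was below the lowest corn-oil array by more than the spread within either group, and the call was kept in all 18 alternatives. Col5a1 read 11.07, 11.05, 11.15 and 11.14 on EPA/DHA, against 11.52 to 11.68 on corn oil (adjusted p = 0.0325, limma). The EPA/DHA arrays of Col5a1 were close together and well apart from corn oil. Its call was nonetheless lost when any 1 of the 8 arrays was left out and in 1 fit over all 24 arrays, with differences between -0.49 and -0.44 over all alternatives and adjusted p up to 0.171.

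Col18a1 came next, at 10.94, 10.87, 10.91 and 10.98 on EPA/DHA, against 11.59 to 11.73 on corn oil. The difference of -0.72 ± 0.17 was not called (adjusted p = 0.0576, limma) although the groups stood far apart. This difference was called in 4 of 18 alternatives. Its SE comes from the spread of all 12 WAT arrays around their diet means, the low-fat arrays included. Col15a1 read 10.26, 10.42, 10.53 and 10.55 on EPA/DHA, against 10.57 to 10.82 on corn oil (-0.29 ± 0.20). Both multiplexins had every EPA/DHA array below every corn-oil array.

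Col6a1, Col6a2, Col4a1 and Col4a2 had lower means on EPA/DHA and were not called at their brightest probe. Col6a1 read 11.83, 12.14, 12.14 and 11.95 on EPA/DHA, against 12.46 to 12.61 on corn oil (-0.53 ± 0.17, adjusted p = 0.147, limma). The dimmer probe called for corn oil against low fat was called here too (-0.56 ± 0.10, adjusted p = 0.0242, limma). The dimmest Col6a1 probe was not called (-0.16 ± 0.07). Col6a2 read 9.27, 9.17, 9.36 and 9.25 on EPA/DHA, against 9.42 to 9.85 on corn oil (-0.44 ± 0.15). Both type VI chains stood apart from corn oil on all 4 arrays.

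Col4a1 read 12.42, 12.81, 13.13 and 12.93 on EPA/DHA, against 13.27 to 13.43 on corn oil (-0.50 ± 0.14, adjusted p = 0.11, limma). Col4a2 read 11.71, 12.02, 12.24 and 11.82 on EPA/DHA, against 12.11 to 12.59 on corn oil (-0.41 ± 0.16), with 1 EPA/DHA array inside the corn-oil range. Col1a1 read 8.49, 8.61, 8.34 and 8.24 on EPA/DHA, against 8.56 to 8.89 on corn oil (-0.29 ± 0.09, adjusted p = 0.139, limma). Col1a2, at -0.01 ± 0.09, and Col3a1, at -0.02 ± 0.15, had nearly equal means on both high-fat diets. Of the 32 members, 7 had every EPA/DHA array below every corn-oil array (Col16a1, Col5a1, Col18a1, Col4a1, Col6a1, Col6a2 and Col15a1), beside 4.95% of all genes. Every EPA/DHA array of Col27a1 was above corn oil, by 0.06, beside 5.29% of all genes.

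**Figure D2:**
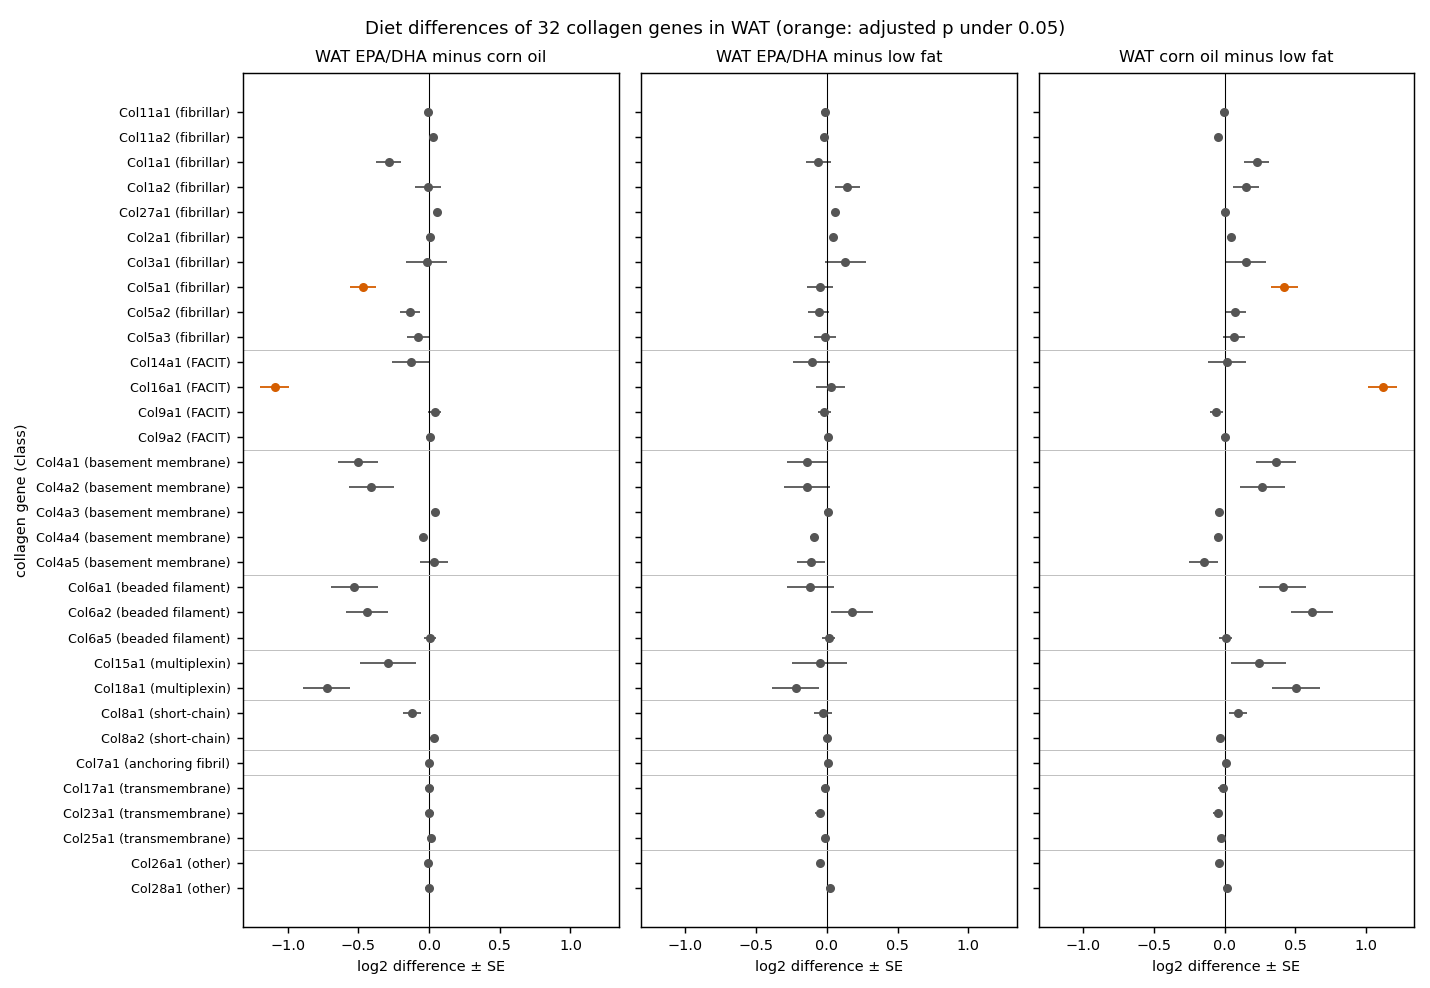
Log2 differences (points, with 1 SE) of the 32 tested collagen genes in WAT, by class, for EPA/DHA minus corn oil, EPA/DHA minus low fat and corn oil minus low fat. Orange marks an adjusted p under 0.05, reached by Col16a1 and Col5a1 in the outer panels and by no gene in the middle one.

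Set against low fat, EPA/DHA changed no collagen gene in WAT past the threshold. Col16a1 differed by 0.03 ± 0.10, with 8.31 to 8.77 on EPA/DHA and 8.35 to 8.66 on low fat, and Col5a1 by -0.05 ± 0.09. By limma 0 of 32 members were called, beside 0.03% of all genes, and 3 had an unadjusted p under 0.05 (Col4a4 at -0.09, Col27a1 at 0.06 and Col26a1 at -0.05), beside 9.06%. Every EPA/DHA array of Col4a4 lay below low fat, beside 2.46% of all genes, and no member lay wholly above, beside 2.2%.

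Markers of other cell types in WAT were read beside these genes. The mean of 12 stromal genes, none of them a collagen, was 9.33 to 9.40 on EPA/DHA, 9.27 to 9.36 on corn oil and 9.39 to 9.57 on low fat. The mean of 12 endothelial genes was 9.20 to 9.25 on EPA/DHA, 9.34 to 9.41 on corn oil and 9.22 to 9.46 on low fat, with every corn-oil array above every EPA/DHA array. Macrophage genes (14) averaged 9.20 to 9.72, 9.55 to 9.82 and 9.30 to 9.58 on the same diets, and mesothelial genes (9) 7.44 to 7.76, 7.36 to 7.66 and 7.64 to 7.99. Liver genes (12) averaged 10.03 to 11.91, 10.20 to 12.32 and 10.39 to 12.31, with medians of 10.73, 11.75 and 11.18. The part of these cells in the collagen results was not tested. Without the 2 WAT arrays highest in Ucp1, left out after the data were seen, Col16a1 kept both calls and Col5a1 lost both.

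In BAT the same diets changed no collagen gene past the threshold. By limma 0 of 31 members were called for corn oil against low fat and for EPA/DHA against corn oil, beside 0% of all 13400 genes in each. For EPA/DHA against low fat it was 0, beside 0.00746%. At an unadjusted p under 0.05 there were 4 members for corn oil against low fat, beside 9.1% of all genes. There was 1 for EPA/DHA against corn oil (Col27a1), beside 4.99%, and 1 for EPA/DHA against low fat (Col7a1), beside 4.77%.

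Col16a1 stayed near its BAT level on every diet, at 7.61, 7.56, 7.48 and 7.88 on EPA/DHA, 7.499, 7.69, 7.92 and 7.52 on corn oil and 7.41, 7.57, 7.497 and 7.52 on low fat. These groups overlap. Col5a1 read 8.83, 8.97, 8.84 and 9.41 on EPA/DHA, 8.92, 9.23, 9.54 and 8.67 on corn oil, and 8.73, 8.91, 8.35 and 8.62 on low fat. Its corn-oil difference from low fat, 0.43 ± 0.19 (adjusted p = 0.61, limma), was as large as in WAT but the BAT arrays were more widely spread.

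The other members with an unadjusted p under 0.05 for corn oil against low fat in BAT were Col4a1, Col18a1 and Col27a1. Col4a1 read 11.62, 11.71, 11.50 and 11.28 on corn oil, against 11.29, 11.15, 10.99 and 11.19 on low fat (0.37 ± 0.10, adjusted p = 0.351, limma). Col18a1 read 8.93, 9.05, 9.53 and 8.62 on corn oil, against 8.54, 8.86, 8.11 and 8.44 on low fat (0.54 ± 0.18, adjusted p = 0.461, limma). In both genes the lowest corn-oil array fell inside the low-fat range. Col27a1, a fibrillar collagen of cartilage, read 7.35, 7.57, 7.67 and 7.45 on EPA/DHA, 7.85, 7.75, 7.70 and 7.75 on corn oil, and 7.63, 7.25, 7.71 and 7.52 on low fat.

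Every EPA/DHA array of Col27a1 in BAT lay below every corn-oil array, at -0.25 ± 0.10, beside 1.54% of all genes. No other member stood apart in a BAT diet comparison. The corresponding shares of all genes were 2.16% higher for EPA/DHA against corn oil, 2.26% higher and 2.89% lower for corn oil against low fat, and 1.18% higher and 1.45% lower for EPA/DHA against low fat.

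Single BAT arrays were the highest or lowest of their group for many of the brighter members. Of the 13 brighter members, corn-oil replicate 3 was the highest array of its group for 11, low-fat replicate 2 for 11 and EPA/DHA replicate 4 for 9. EPA/DHA replicate 3 and low-fat replicate 3 were the lowest for 8 each. The mean of the 12 stromal genes was the highest of its group on corn-oil replicate 3 (8.55), low-fat replicate 2 (8.16) and EPA/DHA replicate 4 (8.28). The skeletal muscle mean was the highest of its group on EPA/DHA replicate 4 (12.47) and corn-oil replicate 3 (12.26), but the lowest on low-fat replicate 2 (9.16). Corn-oil replicate 4, the lowest array for 7 members, had a muscle mean of 12.08. Leaving out EPA/DHA replicate 4 and corn-oil replicate 3, a choice made after the data were seen, left 0 members called in each BAT diet comparison. For Col1a1, EPA/DHA replicate 4 read 8.63, against 7.69, 7.85 and 7.69 on the other EPA/DHA arrays. The part of muscle and of stroma in these values was not tested. WAT arrays gave such counts too. There, low-fat replicate 4 was the lowest of its group for 9 of the 13, and corn-oil replicate 2 for 7. Low-fat replicate 3 was the highest for 7. The same counts were not made over all genes.

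An interaction term, fitted to the 24 arrays together, asked whether a diet effect was larger in 1 tissue. It was called for Col16a1 and for no other member. The corn-oil change from low fat was larger in WAT than in BAT by 0.96 ± 0.15 (adjusted p = 0.00402, limma). The EPA/DHA change from corn oil was more negative in WAT by 1.06 ± 0.15, a difference of -1.06 in log2 units (adjusted p = 0.00201, limma). These are 1 of 32 members each, beside 0.652% and 0.252% of all 14262 genes, with 3 and 5 members at an unadjusted p under 0.05, beside 13.1% and 8.45%. For EPA/DHA against low fat 0 members were called by limma, beside 0.00701%, and 1 (Col7a1) had an unadjusted p under 0.05, beside 6.44%. Both Col16a1 calls were kept in all 26 alternatives, and both rest on the same corn-oil arrays. In BAT Col16a1 read 7.41 to 7.92, closer to the floor than in WAT, so a BAT change may be understated.

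For Col5a1 the corn-oil interaction was -0.01 ± 0.22 and the EPA/DHA one -0.39 ± 0.22 (adjusted p = 0.994 and 0.782, limma). Its WAT diet effects are thus not shown to differ from those in BAT. Col4a1, called in neither tissue, had corn-oil differences of 0.36 in WAT and 0.37 in BAT.

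WAT had higher levels than BAT for 16 or 17 of the 32 collagen genes tested, according to diet, and the largest differences exceeded those between diets. These counts include Col6a5, which passed the filter through WAT alone, and no gene of that kind was called lower in WAT on any diet. Of the 31 members that passed in both tissues, 15 were called higher in WAT on EPA/DHA, 16 on corn oil and 16 on low fat. The shares of all 12487 genes that passed in both were 21.2%, 23.2% and 24.3% in that order. On low fat, 17 of the 32 were called higher in WAT and 3 lower, beside 23.3% and 20.4% of all genes. On corn oil it was again 17 higher and 3 lower, beside 22.8% and 18.3%, and on EPA/DHA 16 higher and 3 lower, beside 20.1% and 17.6%. The median difference on low fat was 0.16 over the 32 members, against -0.006 over all genes.

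**Figure D3:**
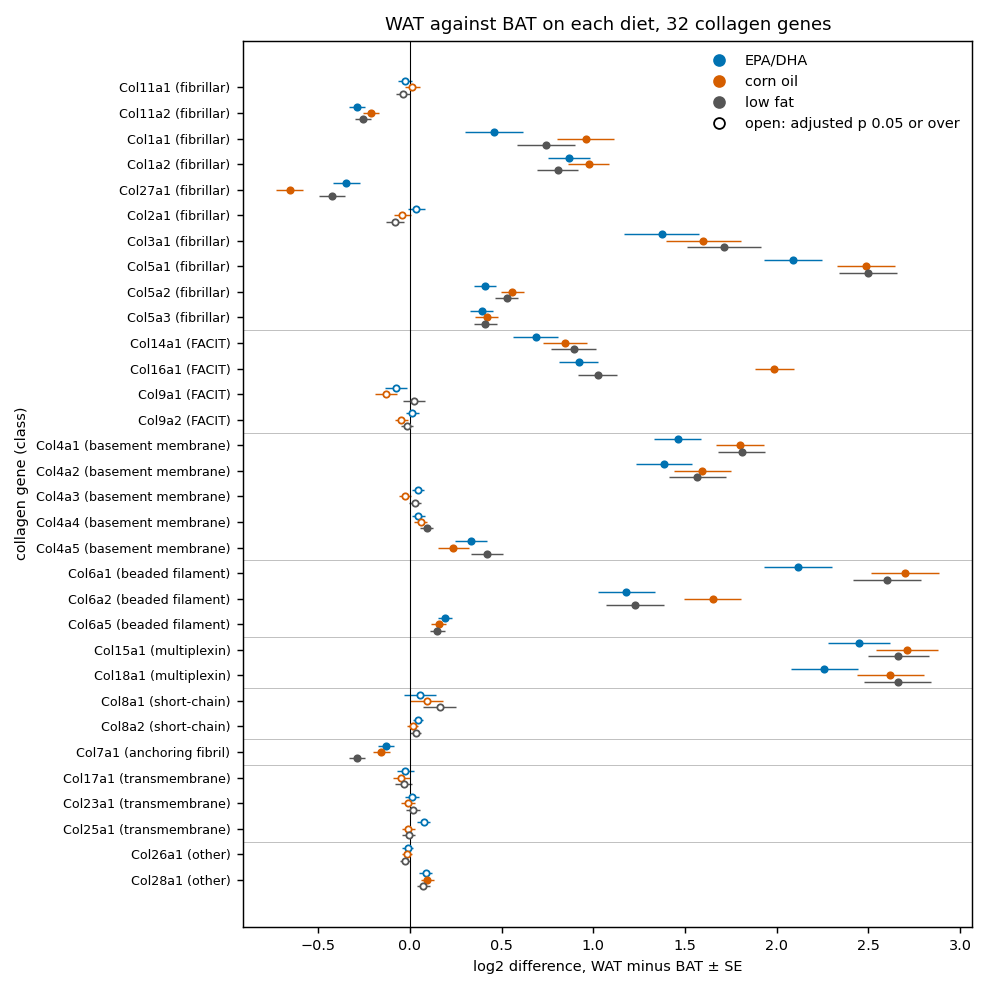
Log2 differences, WAT minus BAT, with 1 SE, for the 32 collagen genes tested, by class. Blue is EPA/DHA, orange corn oil and grey low fat, and open points did not reach an adjusted p under 0.05. Col16a1 differed by 1.99 on corn oil, against 0.92 on EPA/DHA and 1.02 on low fat.

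Col15a1, Col18a1, Col6a1 and Col5a1 differed by more than 2 log2 units on every diet. Col15a1 differed by 2.45 ± 0.17 on EPA/DHA, 2.71 ± 0.17 on corn oil and 2.66 ± 0.17 on low fat, and read 9.94 to 10.98 in WAT, against 7.71 to 8.27 in BAT. Col18a1 differed by 2.26 ± 0.18, 2.62 ± 0.18 and 2.66 ± 0.18 on the same diets, and Col6a1 by 2.11 ± 0.19, 2.70 ± 0.19 and 2.60 ± 0.19. No WAT array of these 3 genes overlapped a BAT array, and the share of all genes standing apart between the tissues was not counted. Col6a2 differed by 1.18 to 1.65 over the diets, and Col6a5 by 0.15 to 0.19, the gene that passed the filter through WAT alone. Dimmer probes of Col6a1, Col6a2 and Col18a1 were also called higher in WAT on each diet, at smaller differences.

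Type IV chains split by gene. Col4a1 was higher in WAT by 1.46 to 1.81 and Col4a2 by 1.39 to 1.59, with Col4a1 at 12.42 to 13.43 in WAT and 10.99 to 11.71 in BAT. Col4a5 was higher by 0.24 to 0.42, its corn-oil call being kept in 11 of 19 alternatives and lost without BAT replicate 2, 3 or 4, or WAT replicate 2 or 3, of that diet. Col4a4 was called on low fat only (0.09), a difference close to the floor that was kept in 11 of 18 alternatives and lost without BAT replicate 1 or 3, or WAT replicate 2 or 3. Col4a3 was called on no diet.

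Among fibrillar genes 6 of 10 tested were higher in WAT on low fat and 2 lower. Col5a1 differed by 2.09 to 2.50 over the diets and Col3a1 by 1.37 to 1.71. Col1a2 differed by 0.81 to 0.97 and Col1a1 by 0.46 to 0.96. For Col1a1 the EPA/DHA difference, 0.46 ± 0.16 (adjusted p = 0.03, limma), was the smallest of the 3. It became 0.68 without BAT replicate 4. The call was kept in 12 of 19 alternatives and was lost without BAT replicate 1, 2 or 3, or WAT replicate 1 or 2, of that diet. Col5a2 (0.41 to 0.56) and Col5a3 (0.39 to 0.42) followed. A dimmer probe of Col5a2 was not called on EPA/DHA (0.06), and another was not called on corn oil (0.08) or low fat (0.09). On the remaining diets these probes were called higher in WAT.

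The members lower in WAT were Col7a1, Col27a1 and Col11a2 on each diet. Col27a1 differed by -0.35 ± 0.07 on EPA/DHA, -0.66 ± 0.07 on corn oil and -0.42 ± 0.07 on low fat. Col11a2, a chain of cartilage type XI collagen, differed by -0.29 to -0.21, and Col7a1, which anchors epithelia to the tissue below, by -0.29 to -0.13. The smallest of these, that of Col7a1 on EPA/DHA, was called in 14 of 19 alternatives and lost without BAT replicate 1, 2 or 3, or WAT replicate 1 or 4, of that diet. In WAT all 3 lay near the floor. A dimmer probe of Col11a2 was called on no diet (-0.058 to -0.0056), and a pair of dimmer probes of Col27a1 was called in 1 of 6 tests (-0.18 to -0.056), so these lower calls rest on the brightest probe. Col14a1, a FACIT collagen of dense connective tissue, was higher in WAT by 0.69 to 0.89. Col28a1 was called higher in WAT on corn oil only (0.10), close to the floor. It was called in 11 of 19 alternatives and lost without BAT replicate 1 or 4, or WAT replicate 1, 2 or 3, of that diet. The stromal list stood at 9.27 to 9.57 in WAT and 8.02 to 8.55 in BAT, and its part in these differences was not tested.

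Genes that make, cross-link, bind or break down collagen, or belong to the transforming growth factor beta pathway, were followed from a list of 84, of which 78 had a probe and 67 passed the filter in WAT. On corn oil 6 were called higher than on low fat and none lower, beside the same 2.05% of all genes called higher. The largest was Pcolce2, which helps to cut off the end of procollagen outside the cell, at 10.06, 10.20, 10.26 and 10.22 on corn oil, against 8.95, 9.28, 9.21 and 9.28 on low fat. It rose by 1.003 ± 0.12 (adjusted p = 0.00284, limma). Serpinh1, the chaperone of procollagen in the endoplasmic reticulum, read 13.76, 14.01, 13.86 and 13.95 on corn oil, against 13.15, 13.36, 13.48 and 13.31 on low fat. It rose by 0.57 ± 0.10 (adjusted p = 0.0154, limma). In all 6 genes called, every corn-oil array was above every low-fat array, beside 6.54% of all genes.

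The 4 called besides Pcolce2 and Serpinh1 passed by smaller margins. P4hb, a subunit of prolyl 4-hydroxylase, rose by 0.33 ± 0.07, Colgalt1, which adds galactose to collagen, by 0.28 ± 0.06, and Sec24d, a coat protein of export vesicles, by 0.29 ± 0.06. Timp1, an inhibitor of matrix-degrading enzymes, rose by 0.81 ± 0.19. With 1 array left out, 2 to 4 machinery genes were called, and Pcolce2 and Serpinh1 were called every time. The catalytic subunit P4ha1 (-0.18 ± 0.14) and the cross-linking enzyme Lox (-0.15 ± 0.12) were not called.

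EPA/DHA lowered 3 of these genes relative to corn oil in WAT, and none was called higher, beside 1.17% of all genes called lower. Pcolce2 read 9.31, 9.27, 8.82 and 9.39 on EPA/DHA and fell by 0.99 ± 0.12 (adjusted p = 0.00344, limma). P4hb read 12.23, 12.11, 12.04 and 12.18 on EPA/DHA, against 12.68, 12.65, 12.44 and 12.36 on corn oil, and fell by 0.40 ± 0.07 (adjusted p = 0.0211, limma). Serpinh1 read 13.34, 13.57, 13.15 and 13.51 on EPA/DHA and fell by 0.50 ± 0.10 (adjusted p = 0.0306, limma). Sparc, a collagen-binding matrix protein, differed by -0.38 ± 0.09 (adjusted p = 0.0683, limma). With 1 array left out, Pcolce2 was called in 8 of 8 fits, P4hb in 5 and Serpinh1 in 2.

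**Figure D4:**
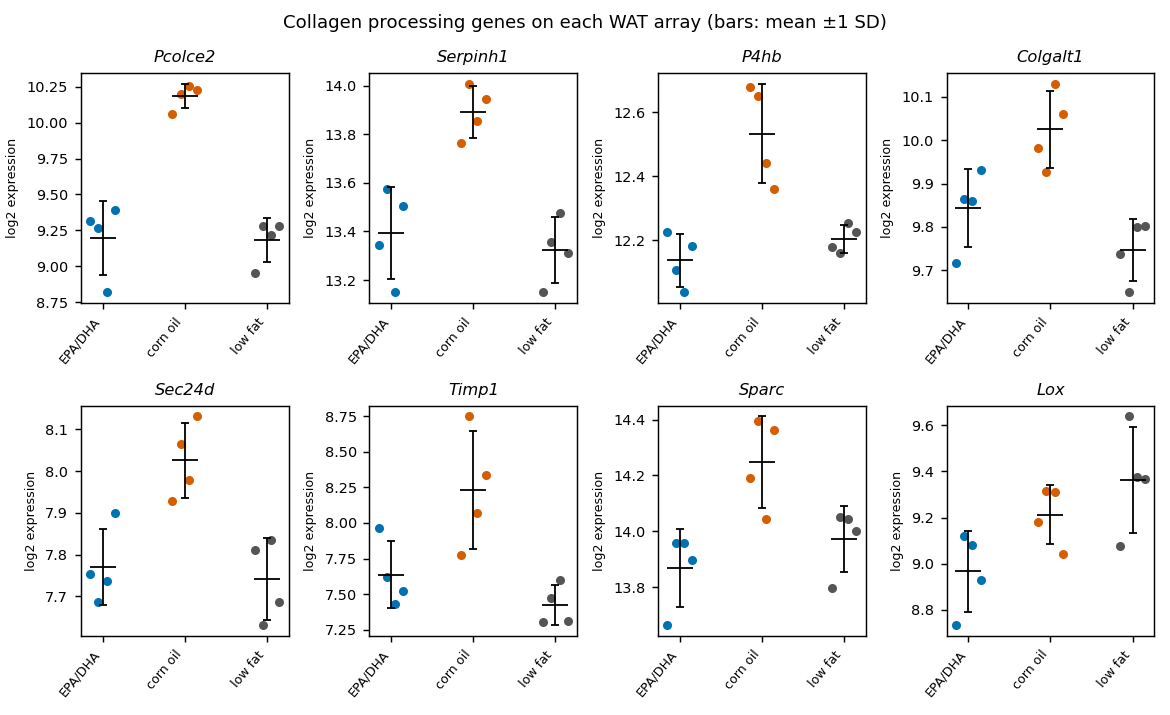
Log2 expression of 8 collagen processing genes on each WAT array (points), with the mean and 1 SD (bars), ordered EPA/DHA, corn oil, low fat. Pcolce2 lay at 10.06 to 10.26 on corn oil, above all arrays of the other diets.

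Against low fat, EPA/DHA changed 0 of the 67 machinery genes in WAT by limma, beside 0.03% of all genes. An unadjusted p under 0.05 was seen for 7, beside 9.06% of all genes. In BAT 0 of 64 were called for corn oil against low fat, EPA/DHA against corn oil or EPA/DHA against low fat. The shares of all genes called were 0%, 0% and 0.00746%. In the same order, 8, 4 and 1 had an unadjusted p under 0.05, beside 9.1%, 4.99% and 4.77% of all genes. No interaction was called for this list, beside 0.652%, 0.252% and 0.00701% of all genes for the same diet pairs in that order. Between tissues, 44 of the 67 were higher in WAT on low fat and 1 (Tgfbr2, a receptor of transforming growth factor beta) lower, beside 23.3% and 20.4% of all genes. Of the 64 that passed the filter in both tissues 42 were higher, beside 24.3% of all genes that passed in both. Of the 3 that passed through WAT alone (Fmod, Loxl3 and Thbs1) 2 were higher, beside 33.4% of all such genes. Sparc was higher in WAT by 1.85 ± 0.10, Lox by 1.23 ± 0.12 and Serpinh1 by 0.88 ± 0.10 on low fat. P4ha1 was not called (-0.53 ± 0.26).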

How the data were processed

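RNA of 24 adipose samples was measured on Illumina mouse arrays. What the authors deposited is a log2 value per probe and array, made with lumi 2.18.0 per the submitters' processing notes. The sorted values of any 2 arrays differ by at most 0.0069, as quantile normalisation over all arrays leaves them, and a change in total signal is hidden. Detection calls were left unused. The platform annotation named probes (34885 with 1 symbol), and symbols were updated through RefSeq. Columns were matched to samples by the sample identifier that heads each, and samples to groups by title.

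For diets, limma 3.58.1 (R 4.3.3) fitted a mean for each diet to the 12 arrays of a tissue, which shared 1 spread. Tissue contrasts and interactions came from a fit to 24 arrays and 29493 probes, those kept in at least 1 tissue. The code was tested on simulated data. The members, the gene lists and the alternatives not described as added were chosen with earlier results of these data known. Array-by-array values are given for members past the threshold in a diet comparison or interaction and for Col1a1, Col1a2, Col3a1, Col4a1, Col4a2, Col6a1, Col6a2, Col15a1 and Col18a1. Other collagen genes with values in the text were chosen after those values were seen. Of the machinery list, genes past the threshold in a diet comparison and Serpinh1, P4ha1, Lox and Sparc are named. Deviations from the group mean were correlated between same-numbered arrays of different groups. The correlations ran from -0.356 to 0.544, and in no pair of groups were all 4 over 0.1. WAT and BAT of the same mouse need not share such deviations, so the correlations cannot tell whether those arrays share a mouse. The main fits treated the arrays as independent.

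Alternatives tried were leaving the filter out or moving it to the 60th percentile, median centring, repeated quantile normalisation, a trended and robust prior, array weights, the mean of all probes of a gene, a replicate block, 24 arrays (or only the 8 of a diet) in 1 fit, and leaving out each array.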

Additional observations from a re-analysis of the deposited data

Results flagged for a closer look

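In 6 of 189 groups of 4 arrays, 1 collagen value stood far from the other 3, where chance gives about 1 in 20 groups. Of these, 3 lay near the floor of the arrays. Col11a2 was 7.27 in WAT EPA/DHA replicate 1, against 7.21 to 7.22 on the other 3 arrays. Col17a1 was 7.07 in WAT corn-oil replicate 4, against 7.13 on each of the others. Col2a1 was 7.03 in WAT low-fat replicate 3, against 7.11 to 7.13. Col8a1, a network collagen of vessel walls, was 7.83 in WAT corn-oil replicate 3, against 7.49 to 7.55. Among the brighter genes, Col15a1 was 10.57 in WAT corn-oil replicate 2, against 10.77 to 10.82, and Col1a1 was 8.63 in BAT EPA/DHA replicate 4, against 7.69 to 7.85.

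The diet effects on Col16a1 differed between WAT and BAT by 0.96 log2 units for corn oil against low fat and by -1.06 for EPA/DHA against corn oil, each past the threshold of the interaction test. Its BAT values, 7.41 to 7.92, lay closer to the floor than its WAT values, and differences there may be understated.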

How the results depend on the processing

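The number of collagen genes called in WAT for corn oil against low fat was 2 and became 1 with no filter, with array weights, with the replicate block and without the 2 WAT arrays highest in Ucp1 (added after the data were seen). With 1 array left out it was between 1 and 3. For EPA/DHA against corn oil in WAT it was 2, became 1 without the 2 arrays highest in Ucp1, and was 1 with any array left out. Wherever 1 gene was called it was Col16a1, and a fit with fewer arrays also has fewer residual degrees of freedom. The replicate block left 2 calls for EPA/DHA against corn oil, 20, 20 and 19 calls for WAT against BAT on low fat, corn oil and EPA/DHA, and 1, 1 and 0 interactions. No result changed sign past the threshold under any alternative run. The other comparisons stayed within 1.5 times their count, with 0 calls in every BAT diet comparison and for EPA/DHA against low fat in WAT, and 17 to 21 for WAT against BAT with 1 array left out. Machinery genes called for corn oil against low fat in WAT were 6, 3 with the replicate block and 2 to 4 with 1 array left out. For EPA/DHA against corn oil they were 3, 5 in 1 fit over all 24 arrays and 1 to 3 with 1 array left out. Quantile normalisation hides shifts of total signal, and values near the floor of the arrays have no reliable order.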
